A study of Drosophila melanogaster with 9 samples.

Results

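The control pupal eye of Drosophila melanogaster was described from 3 RNA-seq libraries of the 9 in the series. They were chosen by title as the mCherry control libraries, named libraries 1, 2 and 3 after their replicate numbers. The control eyes carried UAS-mCherry (BDSC #35787) over pGMR-GAL4, so that a red fluorescent protein was made under a driver active in differentiating eye cells behind the morphogenetic furrow. The submitters label the genotype as the wild type control and the tissue as pupal retina. Pupae were staged for 40 hours at 25 °C from the white prepupa, and the eyes were dissected within 1 hour, at 40 to 41 hours after puparium formation. The other 6 libraries, from eyes with Bonus overexpression with or without yki knockdown, were not used, and no genotype was compared. The control eyes themselves carry the driver and the reporter, the reporter is not a gene of the deposited tables, and the labels give no sex of the pupae. Series notes name the 3 libraries biological replicates. The protocol describes pooling 60 eyes per genotype without saying whether each library had its own pool, so the spread between libraries given here may be technical in part.

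As background, the fly eye is a lattice of repeated units, the ommatidia, each with photoreceptor neurons, a group of cone cells that secrete the lens, pigment cells around them and mechanosensory bristles at its corners. Early in pupal life the lattice cells are sorted and the surplus removed by apoptosis. From mid-pupal life the photoreceptors build the rhabdomere, the stack of microvilli that later holds rhodopsin, pigment cells fill granules with brown ommochromes and red pteridines, and the apical surface secretes the extracellular layers that become cornea and bristle cuticle. Pulses of the steroid ecdysone time these steps through a cascade of nuclear receptors. In a bulk sample of this kind, fewer cells of a type and less RNA per cell cannot be told apart.

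The libraries held 40446012, 48524961 and 34926438 counts for libraries 1, 2 and 3. Levels are given as CPM, each count scaled to a fixed library total of 1000000, or as CPM per kilobase of the deposited gene length (CPM per kb) wherever genes are set beside each other, as mean ± SD over n = 3 libraries where an error is shown. The value of 3 counts per library, the smallest number set apart from 0 here, corresponds to 0.0742, 0.0618 and 0.0859 CPM, a limit that covers counting error only. A gene counted as detected at 1 CPM or more in each of the 3 libraries. By mean level it was classed as high (at least 100 CPM per kb), moderate (10 to 100), low (1 to 10), trace (under 1 CPM per kb, with more than 3 counts in some library) or floor (at most 3 counts in each library).

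Of 17558 genes, 9219 (52.5%) were detected and 1999 had no count in any of the 3 libraries. The classes held 651 high, 4991 moderate, 3583 low, 3433 trace and 4900 floor genes. Among 13917 protein-coding genes the share detected was 62.2% and the median 4.62 CPM per kb, against 1.49 CPM per kb over all genes, and 38.8% of them reached 10 CPM per kb. These shares stand in for the background in what follows. The 100 genes with the highest CPM held 22.3 ± 0.159% of the counts. Between libraries, log2 CPM correlated at 0.998 to 0.999 across the 7844 genes with a mean of at least 5 CPM, a description of genes and not of independent replicates. Compared in pairs, the libraries had a chi-square per gene, relative to counting noise, with means of 4.76 to 11.2 and medians of 0.896 to 1.33. Both the means and the medians lie above those that counting noise alone gives for this statistic.

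The markers named for this tissue were all present. The neuronal RNA-binding protein gene elav (FBgn0260400, BDGP6 X, 509235 to 523226) had 33.8, 32.5 and 35.1 CPM per kb in libraries 1, 2 and 3. The zinc finger gene gl (FBgn0004618, BDGP6 3R, 18367927 to 18372738), which cells behind the furrow need to become photoreceptors, had 121, 119.7 and 118 CPM per kb. The level of elav was highest in library 3 and lowest in library 2, that of gl was highest in library 1 and lowest in library 3, and the values of gl lay above those of elav in each library, with no overlap. The chitinase gene Cht5 (FBgn0038180, BDGP6 3R, 13767549 to 13770732), whose product degrades chitin at moults, had 3727, 3818 and 3558 CPM per kb, which made it the protein-coding gene with the third highest level outside the mitochondrial genome and ribosomal protein genes. The pigmentation gene y (FBgn0004034, BDGP6 X, 356509 to 361245), which acts in cuticle darkening, had 319, 319 and 318 CPM per kb, a range that lay above gl and below Cht5. Of 8 photoreceptor and retina identity markers 7 reached 10 CPM per kb. Among them were the adhesion gene Fas2 at 157, the microtubule-associated futsch at 89.8 and the photoreceptor membrane protein gene chp at 84.9 CPM per kb. The R7 and cone cell factor gene pros stood at 4.69 CPM per kb. This list holds neuronal genes such as elav and nSyb, so it is not exclusive to the retina. Which cells made their RNA was not tested.

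The genes with the highest levels combined cytoskeleton, secretion and cuticle products with a gene listed as a glial marker. A gene known only by its annotation number, CG13023 (FBgn0036677, BDGP6 3L, 16923914 to 16927434), led all protein-coding genes with 7343, 7617 and 7225 CPM per kb and 1.64 ± 0.0446% of all counts on its own. The alpha tubulin gene alphaTub84B followed with 3925, 3971 and 3848 CPM per kb, and its range and that of CG13023 did not overlap. Below them stood Cht5 and then CG13082 at 3491, the glial marker gene bnb at 2884 and the beta tubulin gene betaTub56D at 2071 CPM per kb. The ecdysone-inducible genes ImpE2 and ImpL1 had 1741 and 1614 CPM per kb, and the translation elongation factor gene Ef1alpha48D had 1556 CPM per kb. The cytoplasmic actin gene Act5C had 1309.9 CPM per kb. The odorant-binding family gene Obp44a reached 1531, 1405 and 1695 CPM per kb. Obp44a was highest in library 3 and lowest in library 2, the reverse of Cht5, which was highest in library 2 and lowest in library 3.

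Products of the secretory pathway were among the same 20 genes: the endoplasmic reticulum chaperone genes Calr, with 1448 CPM per kb, and Pdi, with 1001 CPM per kb. The rest of the 20 were the Osiris gene Osi9 at 1119.9, the apical matrix gene tyn at 1057, the iron-binding transferrin gene Tsf1 at 988, and CG13081, CG34247, CG12880 and CG2852 at 1408, 1238, 1057 and 1022 CPM per kb. CG13081 (FBgn0032804, BDGP6 2L, 19540607 to 19541540) and CG13082 (FBgn0032803, BDGP6 2L, 19538425 to 19539740) lie beside each other on chromosome arm 2L. Of the 20, 6 carried only an annotation number, as did 102 of the 627 protein-coding genes of the high class. Neighbours in this order were often not separated: of 19 neighbouring pairs, 13 had library ranges that overlapped.

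**Figure D1:**
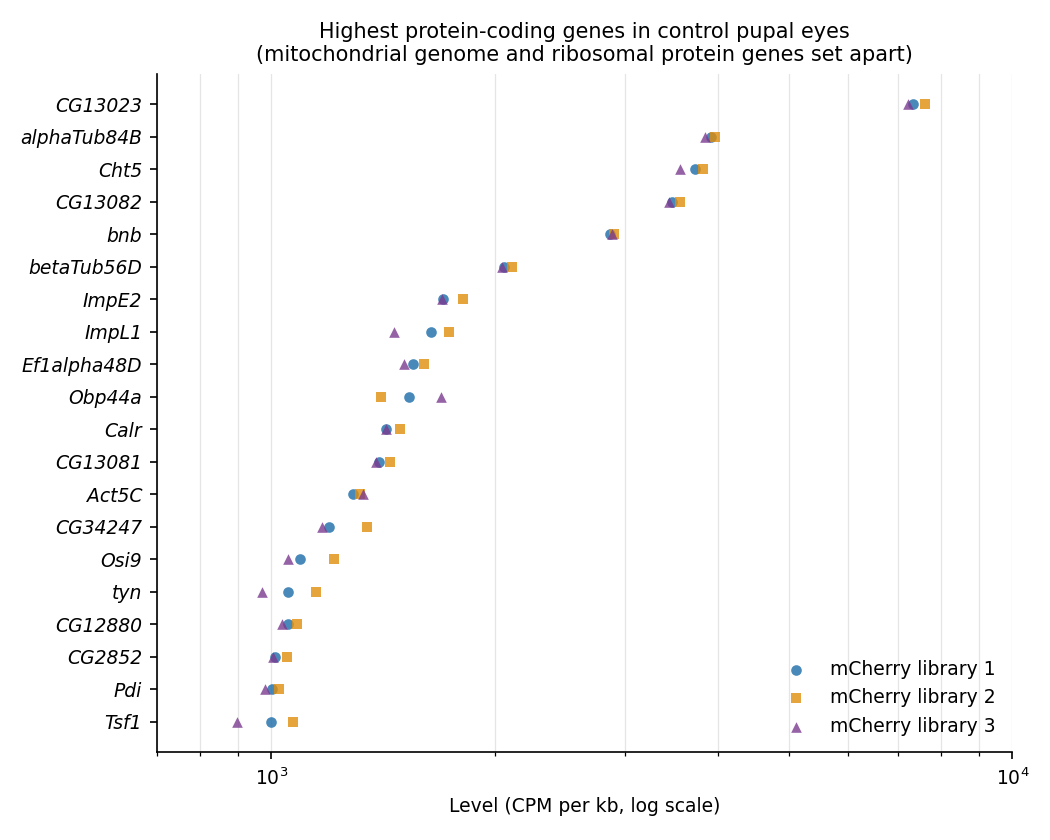
The 20 protein-coding genes with the highest mean level outside the mitochondrial genome and the ribosomal protein families, one row per gene. The x axis is CPM per kb on a log scale, and circles, squares and triangles are mCherry libraries 1, 2 and 3. CG13023 stands alone at the right, and below it the libraries of neighbouring genes often overlap, as in 13 of 19 neighbouring pairs.

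Genes of the retinal determination network, which commits the eye disc to eye fate in the larva, were still present at mid-pupal stage: 9 of the 15 reached 10 CPM per kb, with a list median of 16.7. The phosphatase and coactivator gene eya had 134, 137 and 133 CPM per kb. Its homeodomain partner gene so had 68.0, 65.9 and 63.7 CPM per kb, below eya in each library and without overlap. Optix and the morphogen gene hh stood at 43.2 and 43.3 CPM per kb. The Pax6 genes toy and ey had 27.7 and 16.7 CPM per kb and dac had 24.4 CPM per kb. The proneural gene ato, which founds R8 at the furrow, had no count in any library, which allows at most 0.0618 to 0.0859 CPM.

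Regulators that choose photoreceptor types were all detected (26 of 26), and 17 reached 10 CPM per kb. The transcriptional repressor genes ttk and aop had 106 and 65.4 CPM per kb, and the zinc finger gene chn had 77.0 CPM per kb. The homeodomain gene oc (otd), a regulator of opsin choice, had 43.5, 44.4 and 42.8 CPM per kb. Pph13, which is required for rhabdomeres and phototransduction genes, had 36.9, 38.1 and 37.3 CPM per kb, below oc in each library. The R7 receptor tyrosine kinase gene sev had 1.12, 0.973 and 1.31 CPM per kb while its ligand gene boss had 41.5, 40.5 and 37.2 CPM per kb, and the libraries of the pair did not overlap. The R2 and R5 factor ro stood at 1.15, sens of R8 at 1.56, ss of yellow R7 cells at 1.59 and run at 0.556 CPM per kb. The gene salr of the inner photoreceptors and pros of R7 had 9.69 and 4.69 CPM per kb. Among cone and pigment cell regulators 10 of the 16 reached 10 CPM per kb, with lz at 57.5, the cone cell factors ct at 33.9 and sv at 31.4, and the primary pigment cell genes B-H1 and B-H2 at 22.7 and 12.96 CPM per kb. At the other end were Oaz and nub at 0.0251 and 0.0117 CPM per kb.

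Opsin messages were nearly absent while most of the light-sensing machinery was present. None of the 7 opsin genes reached the moderate class, and their median was 0.298 CPM per kb. The opsin gene of the outer photoreceptors, ninaE (FBgn0002940, BDGP6 3R, 19886255 to 19888206), had 4, 0 and 1 counts in libraries 1, 2 and 3. The ocellar opsin gene Rh2 had 1, 0 and 1 counts. The libraries of both were at or close to 0. Of the opsin genes of the inner photoreceptors, Rh3 of R7 had 14, 32 and 18 counts. Its R7 counterpart Rh4 had 15, 15 and 13 counts. The R8 opsin gene Rh5 had 23, 34 and 28 counts, and these inner photoreceptor genes stayed in the trace class in the mean. The other R8 opsin gene, Rh6, had 19, 19 and 16 counts. Rh7, an opsin gene also expressed in brain clock neurons, stood apart with 320, 320 and 315 counts. That is 1.97, 1.64 and 2.25 CPM per kb, highest in library 3 and lowest in library 2, and Rh7 was the 1 opsin gene detected. The values of Rh7 did not overlap those of any other opsin gene, whereas 4 of the 6 neighbouring pairs in the order of opsin levels overlapped.

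Of 26 genes of the phototransduction cascade 20 reached 10 CPM per kb (list median 41.3). The eye protein kinase C gene inaC (FBgn0004784, BDGP6 2R, 16898535 to 16901575) had 183, 185 and 173 CPM per kb. The retinophilin gene rtp, 20.5% of whose exon bases are shared, had 175, 176 and 168 CPM per kb. Both genes were lowest in library 3. The main arrestin gene, Arr2, had 124, 123 and 114 CPM per kb. The second arrestin gene, Arr1, had 0.250, 0.250 and 0.208 CPM per kb from 25, 30 and 18 counts. The ranges of the arrestin genes did not overlap. The light-gated channel genes were unequal as well. The channel gene trp had 11.5, 11.1 and 11.8 CPM per kb. Its relative trpl had 0.356, 0.312 and 0.375 CPM per kb, below trp in each library and without overlap. The phospholipase C gene norpA had 15.8, the scaffold gene inaD 47.5, the eye G beta gene Gbeta76C 77.4, the phosphatidylinositol transfer gene rdgB 61.4 and the rhodopsin phosphatase gene rdgC 58.2 CPM per kb. Galphaq stood at 45.6 CPM per kb, with 44.1% of its exon bases shared with another gene, so that some of its reads may belong elsewhere.

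Genes for opsin folding and the retinoid chromophore were uneven. The chaperone gene Cnx99A (calnexin) had 282 CPM per kb and the retinol dehydrogenase gene rdhB 191 CPM per kb. The carotenoid cleavage enzyme gene ninaB had 30.7 CPM per kb, against 0.111 for the carotenoid uptake receptor gene ninaD and 0.848 for the retinol-binding protein gene pinta. Xport-A and ninaA, both chaperones of the rhodopsin pathway, had 78.7 and 17.8 CPM per kb, but all of their exon bases lie in exons of other genes and their own levels are uncertain. The rhabdomere and apical membrane genes stood higher as a list: 22 of the 23 reached 10 CPM per kb and 9 were in the high class. Their median was 76.0 CPM per kb. Its members arm and shg are also counted among the Wnt and lattice adhesion genes, so the list is not exclusive to photoreceptors. The beta catenin gene arm had 463 CPM per kb, the spectrin genes alpha-Spec and beta-Spec 276 and 276, and the myosin III gene ninaC 139 CPM per kb. The membrane protein gene prom had 262, 242 and 247 CPM per kb. The lowest of the list was eys, whose secreted product separates the rhabdomeres, with 3.89, 3.57 and 4.90 CPM per kb, and its range and that of prom did not overlap.

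**Figure D2:**
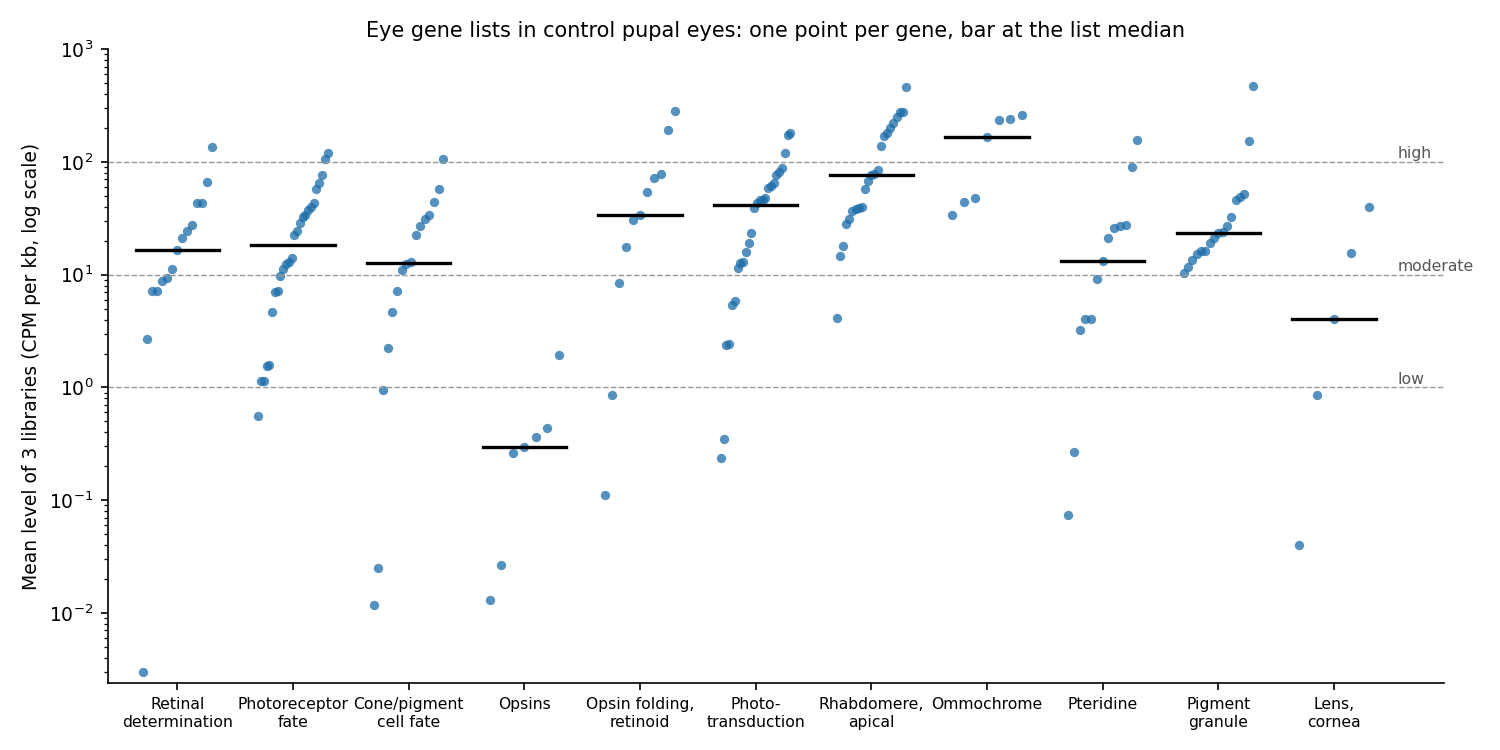
Levels of the members of 11 eye gene lists in control pupal eyes. Each point is the mean level of 1 gene over the 3 libraries in CPM per kb (log scale), each bar is the list median, dashed lines are the lower bounds of the high, moderate and low classes, and the gene with no count (ato) is drawn at the bottom edge. The opsins lie at or below 1.95 CPM per kb. The lists of phototransduction, of rhabdomere and apical membrane, and of ommochrome genes have medians of 41.3, 76.0 and 167 CPM per kb.

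Pigment genes were present as a class. All 7 ommochrome genes reached 10 CPM per kb and 4 were high, with a median of 167 CPM per kb. The peroxidase gene cd (FBgn0263986, BDGP6 3R, 22694959 to 22697990) had 258, 266 and 258 CPM per kb. The pigment transporter gene st had 240.4, 243 and 235 CPM per kb. Its partner w had 234, 251 and 225 CPM per kb. These 3 genes were all highest in library 2 and lay within 1 class, and the enzymes of the first pathway steps were lower. The tryptophan dioxygenase gene v had 43.0, 46.2 and 42.2 CPM per kb. The gene cn, whose product makes hydroxykynurenine, had 46.4, 46.5 and 52.1 CPM per kb, with 68.7% of its exon bases shared with another gene. GAL4 and UAS insertions are commonly marked with copies of w, v or y, the labels do not give the markers of these insertions, and the part of such copies in the counts of these genes was not tested.

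The pteridine genes were more mixed, with 7 of 13 at 10 CPM per kb or more. The transporter gene bw had 157, 163 and 153 CPM per kb. The GTP cyclohydrolase gene Pu, whose product opens the pathway, had 88.4, 95.9 and 86.5 CPM per kb. Both were highest in library 2 and lowest in library 3. The xanthine dehydrogenase gene ry was at trace with 0.245, 0.261 and 0.304 CPM per kb, and the phenylalanine hydroxylase gene Hn, which serves pteridine metabolism, had 7, 6 and 6 counts. The glutathione transferase-like gene se, which is needed for drosopterin, had 3.25 CPM per kb. All 17 genes of pigment granule biogenesis reached 10 CPM per kb. Rab32, the small GTPase of lysosome-related organelles, led with 476, 483 and 466 CPM per kb. The gene mv followed with 159, 146 and 156 CPM per kb, without overlap. The other 15 lay between 10.3 (car) and 51.5 (dtn) CPM per kb, among them the AP-3 adaptor genes g, rb, cm and or at 48.8, 32.6, 27.3 and 23.4 CPM per kb.

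Of 5 genes of the lens and cornea 2 (40%) reached 10 CPM per kb, close to the 38.8% of protein-coding genes. Their median was 4.04 CPM per kb, against 4.62 for protein-coding genes. The corneal cuticle protein gene Cpr72Ec had 41.8, 31.6 and 46.2 CPM per kb. A second corneal cuticle protein gene, Cpr66D, had 14.0, 17.2 and 15.6 CPM per kb. Cpr72Ec was highest in library 3 and lowest in library 2, Cpr66D was highest in library 2 and lowest in library 1, and they did not overlap. The lens crystallin gene Crys had 3.20, 3.98 and 4.94 CPM per kb. The corneal protein gene retinin had 0.898, 0.930 and 0.753 CPM per kb, and Cpr23B had 4, 0 and 1 counts. The spread of Crys was wide for its level, with the highest library 1.54-fold above the lowest, and the gene was highest in library 3 and lowest in library 1.

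The apical matrix and chitin genes included several of the highest levels in the eye. Of 13 genes for zona pellucida domain proteins, the transmembrane and secreted proteins that shape apical matrix, 11 reached 10 CPM per kb and 5 were high, with a median of 56.3 CPM per kb. The gene tyn had 1054, 1148 and 969.7 CPM per kb. The next, pio, had 378, 371 and 374 CPM per kb. In this pair tyn was highest in library 2 and lowest in library 3 and did not overlap pio. The other high members were neo at 313 ± 4.37, mey at 245 ± 2.20 and dyl at 101 ± 8.34 CPM per kb. At the low end dy had 6.94 CPM per kb, and zye, at trace, had 5, 2 and 3 counts. The giant matrix gene dpy had 25.2 and nompA, which links bristle neurons to the cuticle, 40.2 CPM per kb.

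Of the 18 genes of chitin synthesis and matrix, 11 reached 10 CPM per kb. The chitin-binding protein gene obst-A had 256, 250.0 and 238 CPM per kb. Its relative obst-B had 176, 199.95 and 177 CPM per kb, below obst-A in each library. The epidermal chitin synthase gene kkv had 22.1, 27.5 and 28.4 CPM per kb, and the gut synthase gene Chs2 was at the floor with 3, 0 and 1 counts. The UDP-N-acetylglucosamine enzyme gene mmy stood at 43.1, against 2.54 and 0.322 CPM per kb for the chitin deacetylase genes verm and serp. Among chitinases and the related growth factors, Cht5 exceeded the next gene, Cht2 at 99.7, 104 and 96.8 CPM per kb, in each library, with no overlap. The growth factor gene Idgf4 had 47.2, Cht10 30.1 and Cht7 17.8 CPM per kb, while Cht4 had no count and Cht9, Cht12 and Idgf5 were also at the floor, Cht9 with 76.9% of its exon bases shared.

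Cuticle protein families were used selectively. Of 70 Cpr genes, which encode chitin-binding cuticle proteins, 9 reached 10 CPM per kb and 27 were at the floor, a share at 10 CPM per kb of 12.9% against 38.8% of protein-coding genes. The leading member Cpr49Ah (FBgn0033731, BDGP6 2R, 12413962 to 12415170) had 327, 326 and 322 CPM per kb. Cpr76Bc had 191, 211 and 206 CPM per kb. Cpr72Ea had 101, 117 and 111 CPM per kb, and the ranges of these 3 genes did not overlap. Of 30 Lcp, Pcp, Acp and Ccp genes the 2 detected were Pcp at 16.5 and Acp1 at 15.2 CPM per kb. Among 26 Tweedle genes TwdlE alone was detected, at 32.2 CPM per kb, with 71.9% of its exon bases shared with another gene. All 4 Vajk genes were detected, led by Vajk2 with 153, 151 and 163 CPM per kb.

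The Osiris genes, a clustered insect family of endosomal membrane proteins expressed in cuticle-forming cells, ranged over the whole scale, with 3 high, 5 moderate, 7 low, 5 trace and 4 floor members. The gene Osi9 (FBgn0037416, BDGP6 3R, 6260211 to 6262105) had 1093, 1216 and 1051 CPM per kb and was highest in library 2 and lowest in library 3. Osi11 had 231, 238 and 215 CPM per kb. Osi4 had 104, 135 and 131 CPM per kb and was highest in library 2 and lowest in library 1. Of 16 cuticle hardening and darkening genes 5 (31.25%) reached 10 CPM per kb, against 38.8% of protein-coding genes. A further 3 were low, 5 at trace and 3 at the floor. Besides y, the hydrolase gene t (tan) had 60.5, 61.4 and 59.3 CPM per kb. The phenol oxidase gene laccase2 had 26.03, 28.7 and 27.0 CPM per kb. The genes that make dopamine and beta-alanine and join them were at trace. The tyrosine hydroxylase gene ple had 16, 25 and 23 counts. The dopa decarboxylase gene Ddc had 12, 21 and 12 counts. The gene b (black), which serves beta-alanine synthesis, had 18, 18 and 23 counts, and e (ebony), which joins both products, had 44, 34 and 36 counts. The melanising prophenol oxidase genes PPO1 and PPO2 were at the floor, while PPO3 was low at 3.79 CPM per kb. Between laccase2 and PPO3 lay Dat, amd and Mco4, at 13.3, 7.84 and 7.44 CPM per kb. No library of y, t or laccase2 overlapped any library of ple, Ddc, b or e.

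**Figure D3:**
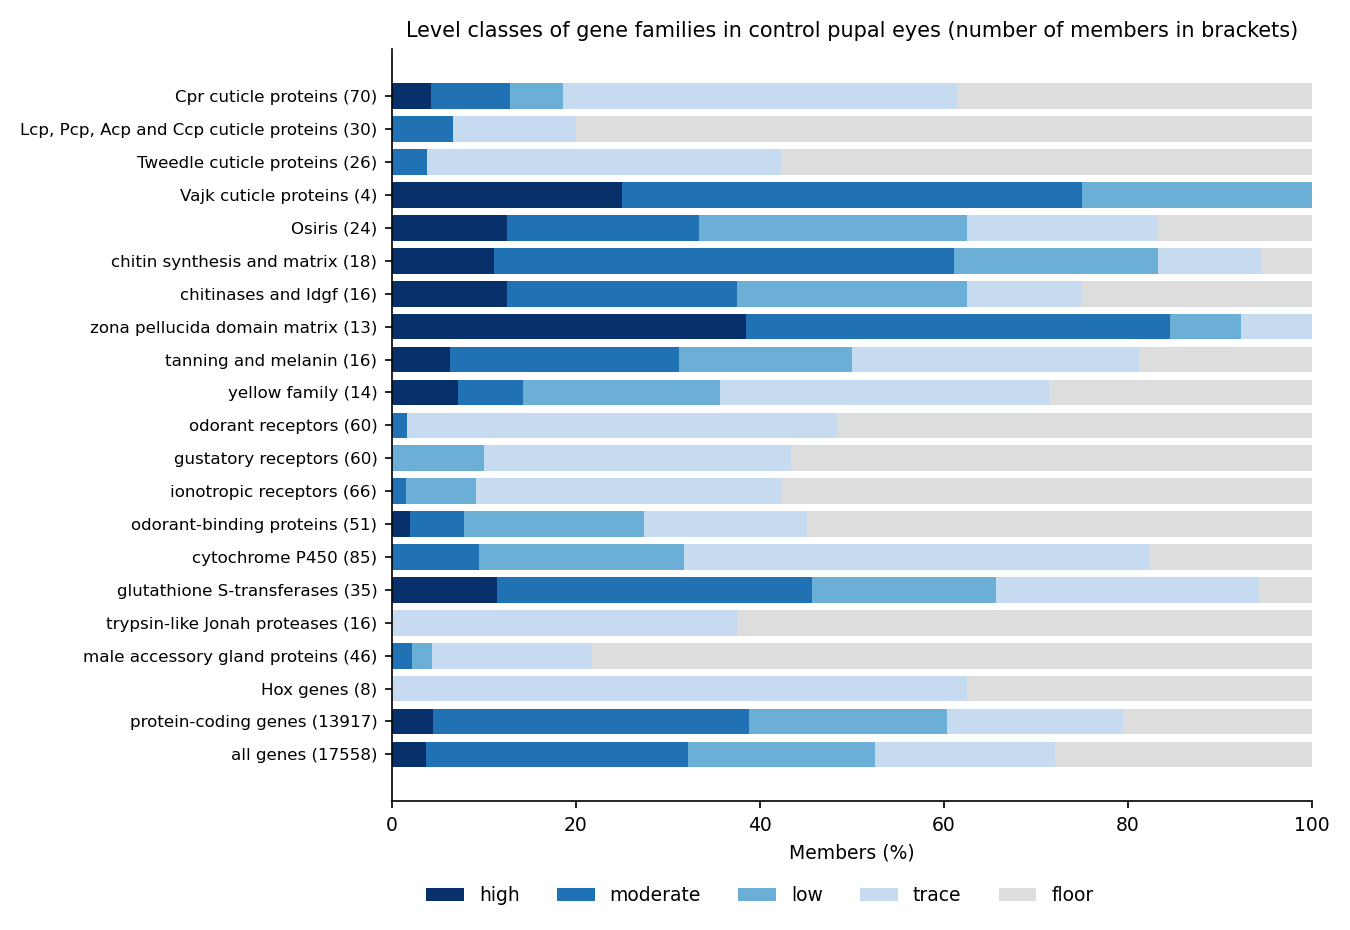
Share of the members of 19 gene families and lists in each level class in control pupal eyes, with protein-coding genes and all genes in the bottom rows. The x axis is the percent of members and colours run from high (dark) to floor (grey), with the number of members in brackets. High and moderate members make up 84.6% of the zona pellucida domain list, 12.9% of the Cpr family and 1.67% of the odorant receptors, against 38.8% of protein-coding genes.

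Epithelial architecture genes were broadly present. All 22 septate junction genes, which seal lateral membranes, reached 10 CPM per kb and 13 were high, with a median of 122 CPM per kb. The immunoglobulin domain gene Lac had 547, 554.9 and 547 CPM per kb, the sodium pump gene Atpalpha 302, Nrx-IV 205 and cora 179 CPM per kb. Of 17 genes listed as actin effectors of bristles and hairs, 16 reached 10 CPM per kb. They include general actin and myosin genes, so the list is not exclusive to these structures. The cofilin gene tsr had 542 ± 14.7, the fascin gene sn 256 ± 6.15, the myosin II heavy chain gene zip 211 ± 2.08 and the profilin gene chic 171 ± 4.89 CPM per kb, and the bristle gene f had 19.3 CPM per kb. The epidermal hair regulator ovo (shavenbaby) was the lowest of them with 5.91, 6.03 and 6.84 CPM per kb. The cytoplasmic actin gene Act42A was high at 439.8 CPM per kb, as was Act5C, Act87E had 5.45 CPM per kb, and the muscle actin genes Act57B, Act79B and Act88F lay at 0.659, 0.410 and 0.388 CPM per kb.

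Planar polarity genes sat in a narrow band: 13 of the 14 were in the moderate class, between 7.10 CPM per kb for frtz, the 1 exception, and 52.3 CPM per kb for the atypical cadherin gene stan. The adhesion genes that sort the lattice cells were also moderate to high (12 of the 13). CadN, Nrg and ed had 142, 142 and 142 CPM per kb, and the paired immunoglobulin receptors rst and hbs had 69.2 and 58.3, with their partners kirre and sns at 40.6 and 16.2 CPM per kb. CadN2, a neighbour of CadN in the genome, stood far lower, at 0.733, 0.598 and 0.957 CPM per kb. Basement membrane genes were all detected, from the perlecan gene trol at 107 and SPARC at 104 to Ndg at 1.599 CPM per kb.

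The genes of synaptic release were more fully represented than those of transmitter synthesis. All 17 synapse genes reached 10 CPM per kb (median 39.3), led by the active zone gene brp with 109, 97.1 and 112 CPM per kb. The vesicle SNARE gene nSyb had 99.2, 100.2 and 103 CPM per kb, a range that overlapped that of brp. Photoreceptors signal with histamine. Its synthesis gene Hdc had 3.77, 3.03 and 3.32 CPM per kb. The carcinine transporter gene CarT, which serves histamine recycling, had 19.9, 19.9 and 18.9 CPM per kb. Both lay below the histamine receptor gene HisCl1, which had 42.0, 42.4 and 41.8 CPM per kb. The second histamine receptor gene, ort, had 0.0802, 0.162 and 0.159 CPM per kb. The ranges of these 4 genes did not overlap. The highest gene of the transmitter list was t (tan), at 60.4 CPM per kb, and e (ebony) of the same list had 0.299 CPM per kb. Both are also counted among the cuticle hardening and darkening genes. The transporter and enzyme genes of other transmitters were low or trace, such as VGlut at 9.05, ChAT at 2.15 and Gad1 at 0.192 CPM per kb. Of 21 ion channel genes 5 reached 10 CPM per kb, with the calcium channel genes Ca-alpha1T and cac at 42.9 and 25.4, the potassium channel gene slo at 37.4 and the sodium channel gene para at 8.98 CPM per kb.

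Surface receptors of synaptic matching differed by family. All 21 dpr genes were detected, 10 of them at 10 CPM per kb or more, led by dpr11 with 72.0, 69.7 and 70.4 CPM per kb, a gene known from yellow R7 cells. Of the 11 DIP genes, the binding partners of the dpr proteins, none reached 10 CPM per kb, and the first was DIP-beta with 3.16, 2.903 and 3.68 CPM per kb. The side genes were all detected and 4 of 8 reached 10 CPM per kb, among them side-V at 37.2, whereas 3 of 14 beat genes did, led by beat-IIb at 29.9 CPM per kb. Among nicotinic receptor subunits nAChRalpha7 was high at 161, 157 and 165 CPM per kb, and the second, nAChRbeta1, had 14.7 CPM per kb. The short neuropeptide F gene sNPF had 222, 213 and 224 CPM per kb.

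All 24 EGFR pathway genes were detected. The ligand gene spi had 221, 227 and 227 CPM per kb. The gene ru, for an intramembrane protease that processes it in the eye, had 121, 124 and 124 CPM per kb. The ligand gene vn had 8.24, 7.74 and 8.86 CPM per kb, without overlap with spi. The germline ligand gene grk had 5.22 CPM per kb. The receptor gene Egfr stood at 36.5, and the feedback inhibitor genes sty, kek1 and aos at 77.1, 66.2 and 21.8 CPM per kb. In the Notch pathway 14 of 15 genes reached 10 CPM per kb, with the receptor gene N at 43.9 and the ligand genes Delta and Ser at 11.0 and 3.16 CPM per kb. Among 15 Notch target genes, by contrast, 4 reached 10 CPM per kb. E(spl)m3-HLH had 98.0, 107 and 107 CPM per kb and E(spl)mdelta-HLH, known from R4 photoreceptors, had 10.3, whereas E(spl)m8-HLH had no count and E(spl)m4-BFM, E(spl)m5-HLH and E(spl)m6-BFM were at the floor.

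Of the Wnt genes, Wnt5 had 33.4, Wnt4 19.4 and wg 18.0 CPM per kb, while Wnt2, Wnt10 and wntD lay between 0.0741 and 0.449 CPM per kb. In the BMP pathway the ligand genes gbb and dpp had 43.0 and 16.02 CPM per kb and the glypican gene dlp had 121 CPM per kb, and the embryonic genes tsg and scw were at the floor. All 10 Hedgehog pathway genes were detected, with the receptor gene ptc at 58.4 CPM per kb. The JAK-STAT pathway had its receptor dome and its transcription factor Stat92E at 32.4 and 32.9 CPM per kb, but its 3 ligand genes upd1, upd2 and upd3 were at trace, at 0.0777, 0.0437 and 0.0339 CPM per kb. Of 24 Hippo pathway genes 19 reached 10 CPM per kb: the coactivator gene yki had 38.6 ± 1.04, its partner sd 23.5 ± 0.532 and the kinase gene wts 28.9 ± 0.389 CPM per kb. The caspase inhibitor gene Diap1 was high at 158, 164 and 164 CPM per kb. The wing selector gene vg had 5, 3 and 5 counts.

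Ecdysone response genes spanned the scale from the highest class to trace, and 18 of 23 reached 10 CPM per kb (median 48.8). The ecdysone-inducible gene ImpE2 (FBgn0001254, BDGP6 3L, 3510974 to 3512681), for an apically secreted protein, had 1706, 1816 and 1700.1 CPM per kb. ImpL1 had 1642, 1737 and 1462 CPM per kb, and both were highest in library 2 and lowest in library 3. The nuclear receptor genes Hr4, Eip75B and Hr3, which are expressed in overlapping early and delayed phases of an ecdysone pulse, had 132 ± 7.52, 126 ± 6.27 and 89.6 ± 4.49 CPM per kb, and 60.1% of the exon bases of Hr3 lie in another gene. The pupal regulator Eip93F had 119, 124 and 128 CPM per kb. The receptor genes EcR and usp stood at 41.1 and 26.3 CPM per kb. Other regulators were at trace: br, which specifies the prepupal and pupal programme, had 0.249, 0.251 and 0.244 CPM per kb. The competence factor gene ftz-f1 (29.4% of its exon bases shared) had 0.582, 0.572 and 0.507 CPM per kb. The nuclear receptor gene Hr38 had 0.109, 0.126 and 0.149 CPM per kb.

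The libraries of Hr4, Eip75B, Hr3 and Eip93F did not overlap those of these trace regulators. Of the enzymes of the hormone, the ecdysteroid inactivating P450 gene Cyp18a1 had 28.1, 30.1 and 26.8 CPM per kb, and 5 of the 9 genes of ecdysteroid synthesis and turnover were detected. The synthesis genes dib, shd and phtm had 3.96, 1.05 and 1.04 CPM per kb, against 0.0843 and 0.00855 CPM per kb for nvd and spok. The juvenile hormone receptor genes Met and gce stood at 7.37 and 3.01 CPM per kb, while its target gene Kr-h1 had 15, 19 and 19 counts and its synthesis gene jhamt none. Shared exon bases make up 40.7% of gce and 78.6% of Kr-h1. The bursicon receptor gene rk, used after eclosion, was at trace with 0.147, 0.122 and 0.101 CPM per kb.

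**Figure D4:**
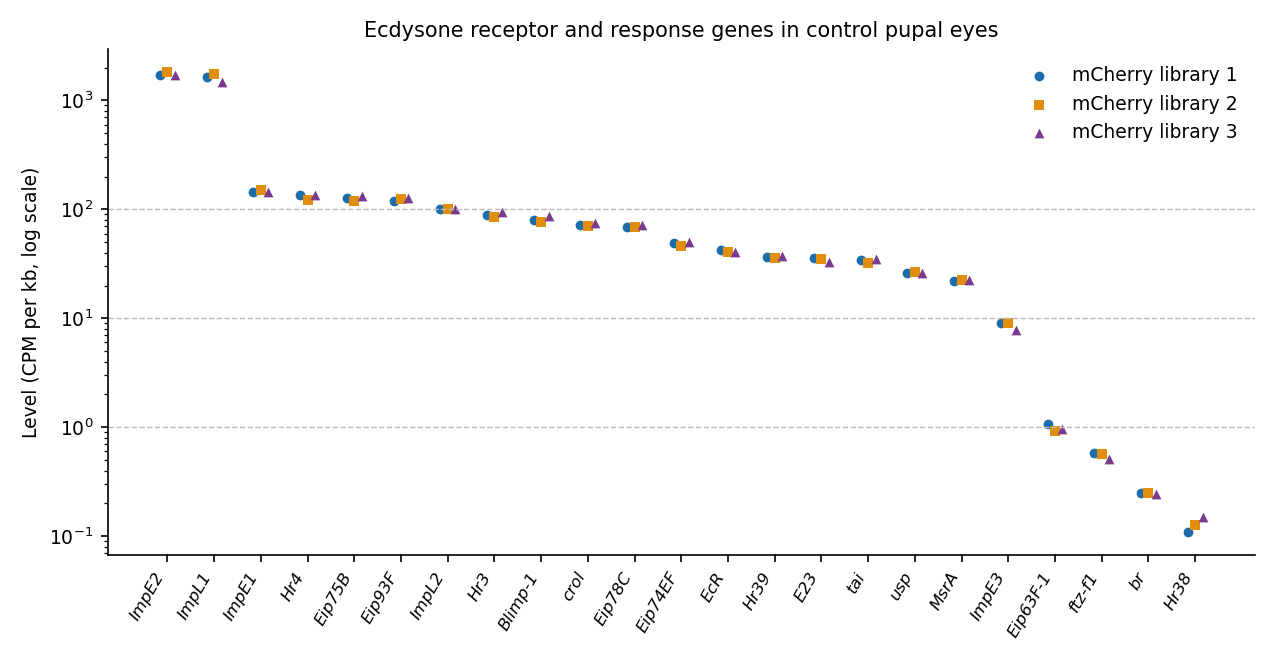
Levels of 23 ecdysone receptor and response genes in control pupal eyes, ordered by mean. The y axis is CPM per kb on a log scale, circles, squares and triangles are libraries 1, 2 and 3, and dashed lines mark 1, 10 and 100 CPM per kb. ImpE2 and ImpL1 stand above all others, the nuclear receptor genes Hr4, Eip75B and Hr3 at 132, 126 and 89.6, and ftz-f1, br and Hr38 below 1 CPM per kb.

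Of 34 cell cycle genes 26 were detected, 10 reached 10 CPM per kb and 12 were at trace. The cyclin-dependent kinase inhibitor gene dap had 43.4, 43.2 and 41.4 CPM per kb, and fzr, which keeps mitotic cyclins degraded in cells that have stopped dividing, had 41.2, 40.7 and 42.0 CPM per kb. The transcription factor gene E2f1, which drives replication genes, was also moderate with 48.4, 49.9 and 49.1 CPM per kb. The replication clamp gene PCNA had 0.162, 0.0963 and 0.161 CPM per kb. The mitotic kinase gene polo had 0.594 ± 0.0766 and the cytokinesis gene pav 0.120 ± 0.0508 CPM per kb, and no library of these overlapped those of E2f1, dap or fzr. The mitotic kinase gene Cdk1, its activating phosphatase gene stg, the replication licensing inhibitor gene geminin and the cyclin A inhibitor gene rux were moderate, at 21.3, 15.8, 16.5 and 14.0 CPM per kb. Of 18 apoptosis genes 9 reached 10 CPM per kb. Among the death inducers hid had 23.1 ± 0.869, rpr 4.00 ± 0.258 and skl 7.53 ± 0.696 CPM per kb, and the initiator caspase gene Dronc had 21.2 CPM per kb.

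Of the small heat shock genes, Hsp26 and Hsp27, which ecdysone also induces, had 691 ± 14.3 and 656 ± 20.1 CPM per kb and Hsp23 had 409 ± 5.96 CPM per kb. The stress-inducible Hsp68 had 1.71 CPM per kb. Of the near-identical Hsp70 copies, Hsp70Bb had 56.9 and the other copies 0.325 to 2.21 CPM per kb, and the part of the counting in this division between copies was not tested. Antimicrobial peptide genes were low to absent, from Def at 2.46 and Drs at 2.10 CPM per kb to Mtk with no count, while the receptor gene Tl had 192, 186 and 181 CPM per kb. The clock repressor gene vri had 106, 108 and 86.6 CPM per kb, lowest in library 3. The light receptor gene cry had 39.1 ± 0.341 CPM per kb, against 15.2 for per, 10.4 for tim and 0.767 CPM per kb for Clk.

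Markers of other cell types that the dissection could include were also examined. Of 17 glial markers 14 (82.4%) reached 10 CPM per kb, against 38.8% of protein-coding genes. The highest was bnb (FBgn0001090, BDGP6 X, 18794246 to 18797687) with 2865, 2902 and 2884 CPM per kb, followed by the gap junction genes Inx2 and ogre at 208 and 155 CPM per kb. The wrapping glia gene wrapper had 139.6 ± 3.06 CPM per kb. The next marker, nrv2 at 137 CPM per kb, is also counted among the septate junction genes, so the list is not exclusive to glia. Which cells made the bnb RNA was not tested. The glial identity gene repo had 41.7, 38.9 and 40.8 CPM per kb, with little difference between libraries. Subretinal glia are a normal part of the pupal retina. The early glial switch genes gcm and gcm2 were at the floor. Without bnb the 16 other glial markers summed to 4125, 4189 and 4059 CPM in libraries 1, 2 and 3.

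Of 12 blood cell markers 6 were detected, 2 reached 10 CPM per kb and 4 were at the floor. Hml, NimC1 and eater had 0.118, 0.346 and 0.0864 CPM per kb, and He had no count. Highest were the scavenger receptor gene crq at 31.7 and the peroxidasin gene Pxn at 26.3 CPM per kb, followed by atilla, Sr-CI and srp at 1.76, 0.774 and 0.723 CPM per kb. Of 20 muscle markers sls alone reached 10 CPM per kb, and the muscle myosin gene Mhc had 0.390, 0.0455 and 0.0253 CPM per kb, with library 1 far above the others. Of 11 fat body markers the lipid transfer gene Mtp and Adh reached 10 CPM per kb at 44.2 and 11.6, Adh with 93.9% of its exon bases shared, and 8 of the 11 were detected. The lipophorin genes apolpp and Apoltp had 3.16 and 2.13 CPM per kb. The storage protein gene Lsp2, with 84.6% of its exon bases shared, had 1.64 CPM per kb and Lsp1alpha 3, 13 and 7 counts. Of 5 trachea markers 3 were detected. The FGF ligand gene bnl had 4.41, rib 1.04, the selector gene trh 0.381, the FGF receptor gene btl 0.183 and dysf 0.0107 CPM per kb. Germline markers and gut and gland markers had medians of 0.0415 and 0.0257 CPM per kb, and none reached 10 CPM per kb. Of 20 germline markers 4 were detected, led by tj at 7.14, Cp38 at 3.89 and piwi at 1.14 CPM per kb, while vas had 0.0590 CPM per kb. Of 18 gut and gland markers 2 were detected, Sgs8 at 4.19 and Mal-A1 at 2.47 CPM per kb, and the trypsin gene alphaTry had no count.

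All 8 Hox genes lay at trace or floor, the highest being Ubx with 0.110, 0.0818 and 0.107 CPM per kb. Head and antennal patterning genes were low as well: Dll had 2.28, al 0.238, ems 0.0298 and btd 0.00840 CPM per kb, whereas SoxN, bowl and the epidermal factor gene grh had 41.9, 41.8 and 19.8 CPM per kb. Chemosensory receptor genes were mostly undetected: 1 of 60 odorant receptor genes, 9 of 60 gustatory receptor genes and 6 of 66 ionotropic receptor genes were detected. The share detected over protein-coding genes was 62.2%. The highest ionotropic receptor gene, the 1 of its family in the moderate class, had 16.6 CPM per kb. The single odorant receptor gene, Or43b, had 16.2, 16.2 and 16.5 CPM per kb with 40.7% of its exon bases shared with another gene. Of 16 Jonah trypsin-like protease genes none was detected, and of 46 male accessory gland protein genes 1 was, Acp95EF, all of whose exon bases lie in another gene. The replication-dependent histone genes were at the floor, 111 of 115 histone genes in all, and 108 of the 115 had no count in any library. The libraries were made by poly(A) selection. The part of that selection, and of the counting of repeated gene copies, in these values was not tested.

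The libraries differed little for most genes. Over 7844 genes with a mean of at least 5 CPM, the median coefficient of variation was 3.44% and the median ratio of highest to lowest library was 1.07. In 51 genes (0.650%) that ratio reached 1.5, and 42 of the 51 were highest in library 3 and 34 were lowest in library 2. Over all 7844 genes the highest library was library 3 in 2843 and library 2 in 3101, and the lowest was library 2 in 2731. Left out in turn, library 3 lowered the count of 51 to 10, library 2 to 26 and library 1 to 40, with 2 libraries compared in each case.

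The largest ratio was that of the heat shock gene Hsp70Ab, whose reads may be split with near-identical copies, with 8.75, 3.26 and 3.75 CPM and library 1 highest. The nicotinic receptor gene nAChRalpha6 had 9.99, 8.70 and 22.8 CPM in libraries 1, 2 and 3. Its relative nAChRalpha5 had 11.0, 8.28 and 21.4 CPM. The potassium channel gene Shab had 6.87, 4.29 and 10.2 CPM. Library 3 was highest and library 2 lowest in these channel genes. The astrocyte-like glia marker alrm had 20.3, 13.8 and 30.7 CPM. The optic lobe neuron gene ap, chosen after its values were seen, had 24.8, 21.5 and 37.0 CPM. The brain and optic lobe neuron markers other than sNPF summed to 482, 467 and 556 CPM. Of the 17 brain markers 12 were detected: the optic lobe factor genes bsh and vvl had 14.8 and 13.8 CPM per kb, and the transmitter genes VGlut, VAChT, ChAT and Gad1 had 9.05, 6.93, 2.15 and 0.192 CPM per kb, with the neuropeptide gene Crz at the floor. The fat body markers other than Mtp summed to 111, 106 and 135 CPM. Muscle markers other than sls summed to 53.5, 40.1 and 40.0 CPM. Their part in the spread between libraries was not tested. The dosage compensation RNA gene lncRNA:roX1, active in males, had 639, 427 and 868 CPM. Its counterpart lncRNA:roX2 had 12.4, 8.70 and 16.03 CPM, also highest in library 3 and lowest in library 2. The lens and Osiris genes Crys, Osi1, Osi7 and Osi13 were highest in library 3 and lowest in library 1, with 102, 157 and 159.5 CPM for Osi7.

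**Figure D5:**
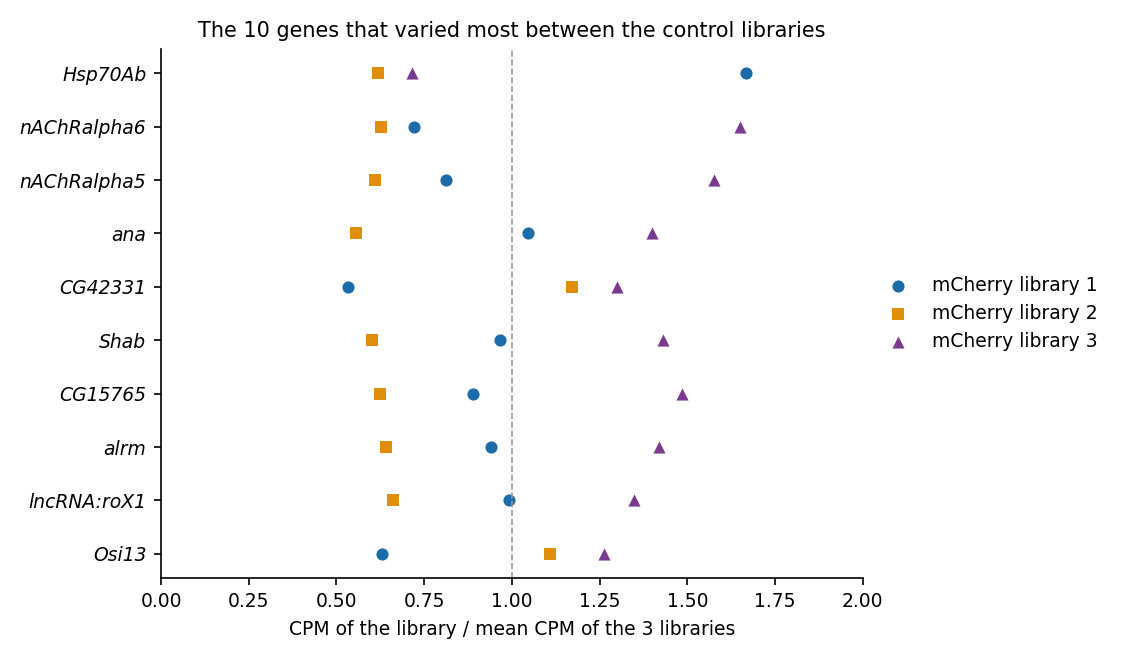
The 10 genes with the largest ratio of highest to lowest library among genes with a mean of at least 5 CPM. The x axis is the CPM of a library divided by the mean CPM of the 3 libraries, and circles, squares and triangles are libraries 1, 2 and 3. Library 3 is the highest in each gene shown other than Hsp70Ab, where library 1 is.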

How the data were processed

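RNA was measured by poly(A)-selected paired-end RNA-seq in 3 libraries of control pupal eyes. The submitters' processing notes list STAR 2.7.0e, featureCounts of Subread 1.6.2, cutadapt 2.9, Bowtie2 2.3.5.1, DESeq2 1.30.1 and genome build BDGP6, with roles, options, strand setting and handling of shared reads not given in the sources here. The authors deposited estimated counts per gene, not all whole: 39.7 to 42.8% had a decimal part, mostly 0.5, and all were rounded to whole numbers here. Reads of overlapping genes, of antisense partners and of near-identical copies may have been mixed or divided, and 2736 genes share at least 10% of their exon bases with another gene. The larger shares are printed beside the genes they touch.

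CPM was computed as counts over the library total, and CPM per kb by dividing by the deposited exon length (Python 3.11.15, pandas 2.3.3). Of 17558 gene identifiers 17252 were matched to current symbols. The members, 58 gene lists, 39 families named by symbol, classes and alternatives were chosen with earlier results of these data known. The text names the given markers, the 20 highest protein-coding genes and, from the highest and lowest members of each list and family, members at the floor and the 10 genes of largest spread, a part. Members between these ranks, the genes given for the difference between libraries beyond those 10, and the exclusion of 3 centrosomal genes from the chorion family were chosen after their values were seen. No test between groups was made. Intervals and floors cover counting error only. Scaling factors came from edgeR 4.0.16 and DESeq2 1.42.0 in R 4.3.3. The code of the class assignment was checked on Poisson counts simulated around the observed gene means. Such counts hold counting noise only, so the check cannot show how the larger spread between these libraries affects the classes. The columns of 6 further libraries of the series were not used.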

Additional observations from a re-analysis of the deposited data

How the results depend on the processing

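No paired analysis was possible because a single group was described and no test was made. Detected genes, named genes at 10 CPM per kb or more, lists with a median of at least 10 CPM per kb, families with a median under 1 CPM per kb and the share of the top 100 genes stayed within 1.5 times their values (9219 genes, 286 of 457 genes, 32 of 58 lists, 22 of 39 families and 22.3%) under each setting tried for them. Those were TMM or DESeq2 scaling, totals without mitochondrial and rRNA genes, TPM, deposited decimals, and each library left out, with further settings for some. TPM was 2.48 to 2.55 times CPM per kb, which raised lists at 10 or more to 37. The 51 genes of large spread became 232 with a minimum of 1 CPM and 15 with 20 CPM, and 10 to 40 without 1 library, where 2 libraries are compared in place of 3. The high class grew to 1926 genes under TPM. Over genes kept by filterByExpr 0 were at the floor and 1388 at trace, as that filter removes low counts, and 2859 protein-coding genes were at the floor. Without genes of 10% or more shared exon bases, an alternative chosen after seeing the data, 23 of 58 list medians moved by more than the spread between libraries. By the same measure 55 moved under CPM without division by length and 58 under TPM. With totals without mitochondrial and rRNA genes 6 moved. At these depths counting error limits what can be said of levels under 0.0859 CPM.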

Other observations

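Detoxification, membrane and odorant-binding families were set beside the 38.8% of protein-coding genes that reached 10 CPM per kb. Glutathione S-transferase and tetraspanin genes, at 45.7% and 44.1%, were close to that share. Cytochrome P450 and odorant-binding protein genes, at 9.41% and 7.84%, were below it. Of 35 glutathione S-transferase genes 16 reached 10 CPM per kb, led by GstD1 with 663 ± 17.0 and GstD3 with 227 ± 2.61 CPM per kb. Of 85 cytochrome P450 genes 8 did, led by Cyp4e1 with 90.5, 93.9 and 81.4 CPM per kb, and Cyp4g1, the hydrocarbon-forming enzyme gene of oenocytes, had 4, 3 and 16 counts. Of 34 tetraspanin genes 15 reached 10 CPM per kb, with Tsp42Ee at 216, 218 and 219 CPM per kb. Of 51 odorant-binding protein genes 4 did: Obp44a at 1544 was followed by Obp56a at 52.4, 63.4 and 60.2 CPM per kb, without overlap. Of 93 genes matched as cytoplasmic ribosomal proteins 81 were high, with a median of 587 CPM per kb, against 17.3 CPM per kb for 73 mitochondrial ribosomal protein genes. The matrix protease gene Mmp2 had 102 ± 4.28 CPM per kb and Mmp1 had 7.98 ± 0.184 CPM per kb, without overlap.

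Genes other than protein-coding held 1.43 ± 0.0295% of the counts. Of 3641 such genes 24 were high, 13 of which had over 50% of their exon bases in another gene and 7 of which were shorter than a 150-base read. The noncoding gene with the highest CPM was lncRNA:CR42862 (FBgn0262109, BDGP6 3L, 224106 to 230964) with 3816, 3718 and 3952 CPM. CR34335 (FBgn0085364, BDGP6 X, 3545862 to 3546110) had 2043, 1817 and 1823 CPM per kb. Of 111 genes on chromosome 4, 89 (80.2%) were detected with a median of 20.8 CPM per kb, against 52.5% and 1.49 CPM per kb over all genes. Over protein-coding genes the values were 62.2% and 4.62 CPM per kb, and the part of gene type in the difference was not tested. None of 71 genes on chromosome Y was detected. Of the 89 chromosome 4 genes detected, 53 were highest in library 3, against 3385 of 9219 over all genes.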
